A study of Mus musculus with 33 samples.

Results

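The naive pluripotency transcription factors are described here across sorted populations of mouse fibroblasts undergoing reprogramming. They are 10 genes chosen by symbol, namely Nanog, Sall4, Prdm14, Esrrb, Nr5a2, Tfcp2l1, Zfp42, Klf2, Klf5 and Tbx3, among 37973 rows of gene expression values. Each of the 10 had a row of its own, and all 10 passed the filter on low values that left 17104 genes for testing. The genes were chosen by name, with earlier results of these data known.

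In mouse embryonic stem cells these proteins hold the naive state, the condition of the preimplantation epiblast, as a network in which most members bind and activate one another's genes together with Oct4 (gene Pou5f1) and Sox2. The cytokine Lif feeds the network through Stat3, which activates Tfcp2l1 and Klf5 as well as Klf4, while Fgf and Erk signalling works against it. During reprogramming of fibroblasts the endogenous network is silent at the start, and its activation is among the late events that lead to cells able to maintain themselves without the introduced factors.

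The cells were mouse embryonic fibroblasts (MEFs) from embryos of 14 to 15 days, of genotype Col1a1-OSKM+/-; Rosa26-rtTA+/-; Oct4-GFP+/-, bred from a cross of 3 mouse lines, which carry Pou5f1tm2Jae, Gt(ROSA)26Sortm1(rtTA*M2)Jae and the tetO-driven OSKM cassette at Col1a1. Every group carried this genotype: a doxycycline-inducible cassette of Pou5f1, Sox2, Klf4 and Myc (OSKM), the rtTA activator and a GFP reporter at Pou5f1. All were cultured in serum medium with Lif (ESGRO) and doxycycline at 1 µg/ml. In the first arm Dppa2 and Dppa4 were overexpressed as well, related chromatin proteins of early embryos and germ cells, and in the second they carried a control overexpression, both delivered by lentiviral transduction. Cells of both arms were sorted on days 2, 4, 8, 11 and 14 by the fibroblast antigen Thy1, by SSEA1, a carbohydrate antigen gained on the way to pluripotency, and by Oct4-GFP. On days 8, 11 and 14 the Thy1 and SSEA1 gates were also GFP-negative, and a day 14 gate given only as Thy minus is read here as Thy1-. RNA-seq gave 17 Dppa2/4 libraries and 13 control libraries that could be matched to a label and gate, 1 for each arm, day and gate, with no replicates.

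Both arms were present in 13 combinations of day and gate, called pairs here: 4 of Thy1+SSEA1- cells, 4 of Thy1-SSEA1- cells, 3 of Thy1-SSEA1+ cells and 2 of GFP+ cells. The Dppa2/4 arm alone had Thy1+SSEA1+ cells on days 2 and 4, Thy1-SSEA1- cells on day 14 and GFP+ cells on day 8. Values are FPKM, fragments scaled to transcript length and library size, so levels of different genes can be set side by side. The deposited values implied a depth of 21.4 to 42.7 M fragments per library. The p-values below measure how alike the arms, gates or days differ over pairs and libraries, not the spread between independent transductions. Dppa2 and Dppa4 checked the labels: in the SSEA1- gates Dppa2 was at 81.8 FPKM or higher in every Dppa2/4 library but 1, and at 0.916 FPKM or lower in every control library. The exception, labelled Dppa2/4 day 4 Thy1+SSEA1- and called the doubtful day 4 library below, had Dppa2 at 0.354 and Dppa4 at 0.409 FPKM, so calls that change without it are given both ways. Thy1-SSEA1+ cells had Dppa2 at 43.2 to 123 FPKM with Dppa2/4 and 6.40 to 14.1 FPKM in controls. Neither Dppa2 nor Dppa4 passed there in the limma fit by gate given below (median log2 difference 2.93). In GFP+ cells Dppa2 was at 49.3 to 61.5 FPKM with Dppa2/4 and 45.4 to 66.1 FPKM in controls, where reads of the introduced and the endogenous gene cannot be told apart. The control library titled day 11 GFP+ is described under a different gate, and its members were at the level of the other GFP+ libraries.

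The promoters of 2 members are shown because they carry letters through which the induced factor Oct4, and for Nanog also Sox2, is known to bind DNA. Their transcripts also took different courses over the gates. RefSeq sequences were listed for 6 members (Nanog, Zfp42, Klf2, Esrrb, Tfcp2l1 and Nr5a2), as 250 bases before the start of transcription in GRCm38.p6, the assembly also called mm10. Capitals mark the matches, and sequences read 5′ to 3′ on the strand of the gene. The Nanog window is chr6:122707239-122707488 on the + strand, and the Zfp42 window is chr8:43307010-43307259 on the - strand.
Nanog: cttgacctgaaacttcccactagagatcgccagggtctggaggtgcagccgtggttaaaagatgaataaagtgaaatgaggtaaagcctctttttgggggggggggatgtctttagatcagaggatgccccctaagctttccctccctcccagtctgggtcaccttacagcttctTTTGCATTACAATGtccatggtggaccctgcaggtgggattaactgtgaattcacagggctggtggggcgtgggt
Zfp42: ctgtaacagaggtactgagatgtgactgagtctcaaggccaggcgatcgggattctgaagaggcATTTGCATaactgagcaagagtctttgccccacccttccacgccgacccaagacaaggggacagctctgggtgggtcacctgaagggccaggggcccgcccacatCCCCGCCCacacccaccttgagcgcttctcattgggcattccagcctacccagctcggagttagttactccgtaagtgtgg

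The Nanog capitals are the composite Oct-Sox element, searched with 1 free base between its parts and found on the other strand, at 75 to 62 bases before the start. It occurred in 2 of 32851 RefSeq windows, or 0.00609% of them, and both are windows of Nanog, for alternative starts, that share the same copy. The first Zfp42 capitals are an octamer, ATGCAAAT on the other strand, at 186 to 179 bases before the start, which 1.6% of windows hold. The second are the GC box GGGCGGGG on the other strand, found in 16.1% of windows, and Klf2 had 2 of these. The 3 remaining members with a window, Esrrb, Tfcp2l1 and Nr5a2, held no match to these or to the Sox element CATTGTT, the nuclear receptor half-site CAAGGTCA or the Stat element TTCCNGGAA, which occur in 3.29%, 1.33% and 0.913% of windows. A match is a description of the letters, and both strands were searched.

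**Figure D1:**
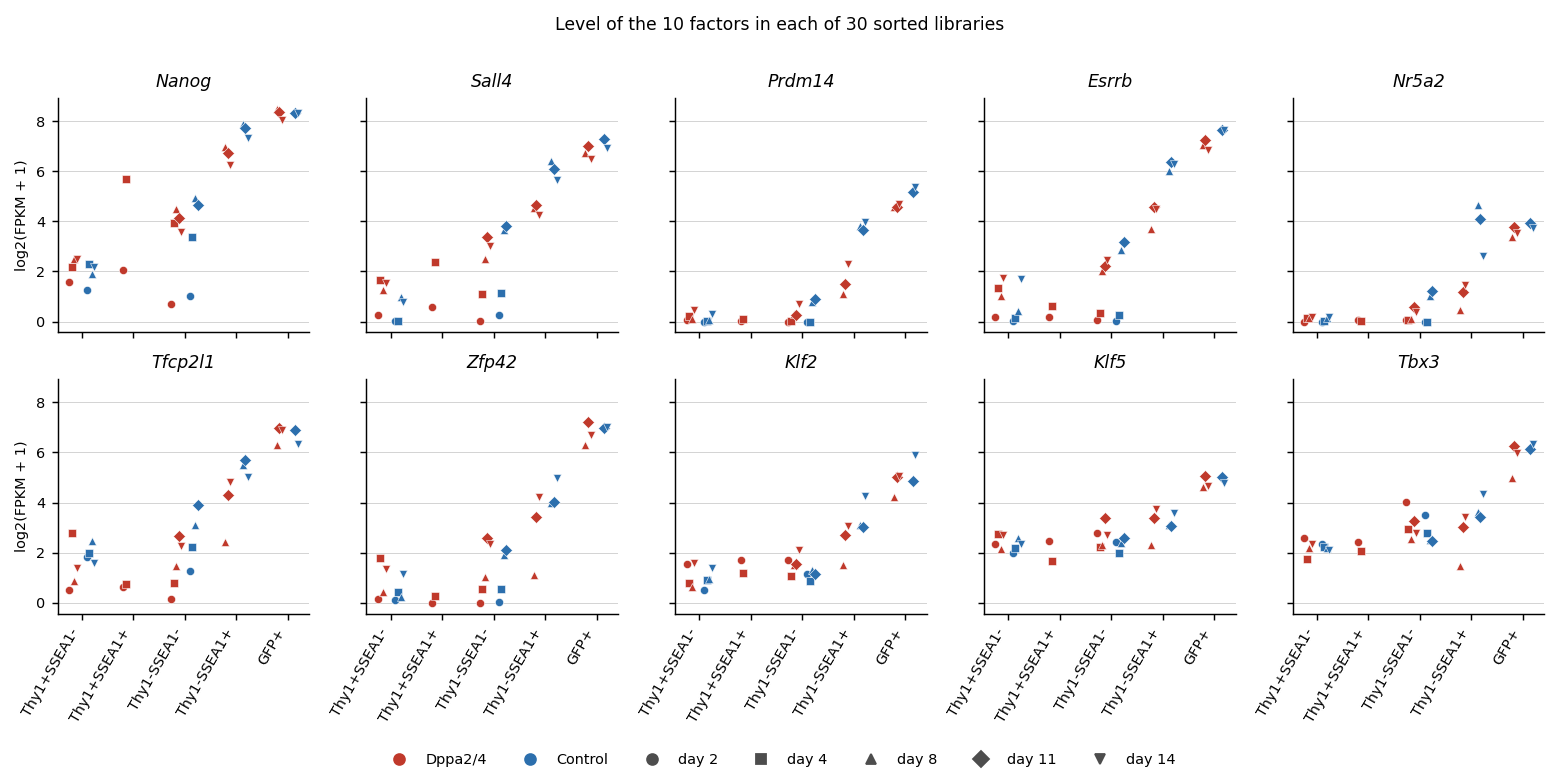
Level of each of the 10 factors, as log2(FPKM + 1) on the vertical axis, in the 30 libraries by gate, with Dppa2/4 libraries in red left of control libraries in blue and the day as the shape of the point. The Thy1-SSEA1+ column separates the arms for Nanog, Sall4, Prdm14, Esrrb, Nr5a2 and Tfcp2l1, and within each arm the GFP+ libraries lie above all others for every factor except Nr5a2 in controls.

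Nanog, a homeodomain protein at the centre of the network (chr6:122707489-122714633 in GENCODE vM21), was detected in every library. In Thy1+SSEA1- cells it measured 1.97, 3.51, 4.58 and 4.69 FPKM in the Dppa2/4 arm on days 2, 4, 8 and 14, and 1.42, 3.93, 2.75 and 3.57 FPKM in the control arm. In Thy1-SSEA1- cells it was 0.646, 14.1, 21.7 and 16.4 FPKM in Dppa2/4 cells on days 2, 4, 8 and 11, with 10.9 FPKM on day 14, and 1.04, 9.38, 29.4 and 24.2 FPKM in control cells. In Thy1-SSEA1+ cells it was 123, 104 and 74.1 FPKM with Dppa2/4 on days 8, 11 and 14, and 232, 209 and 161 FPKM in controls. GFP+ cells had 360.4, 323 and 259.9 FPKM with Dppa2/4 on days 8, 11 and 14, and 323 and 317 FPKM in controls on days 11 and 14. Every Thy1-SSEA1+ library was thus above every SSEA1- library, and the arms did not overlap there. In cells sorted in bulk, fewer cells of a type and less RNA per cell cannot be told apart. Nanog has 2 annotated pseudogenes and Zfp42 has 1. None had a row in the table, and how reads shared with such copies were counted is not given in the sources used here.

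The Thy1+SSEA1+ cells, a small early population measured in the Dppa2/4 arm alone, had Nanog at 3.20 FPKM on day 2 and 50.5 FPKM on day 4. The day 4 library was the only one at 50 FPKM or more for any member outside Thy1-SSEA1+ and GFP+ cells. The other members did not share this level: Sall4 was at 4.13, Tbx3 at 3.22, Klf5 at 2.17 and Klf2 at 1.27 FPKM, and Tfcp2l1, Esrrb, Zfp42, Prdm14 and Nr5a2 were at 0.675 FPKM or lower. There is no control library of this gate, so no comparison between arms was made.

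Sall4 and Prdm14 are zinc finger proteins of pluripotent and germ cells, Sall4 a partner of Oct4 (chr2:168748332-168767943) and Prdm14 a repressor of the methyltransferase gene Dnmt3b and of Fgf signalling (chr1:13113457-13127163). Sall4 measured 22.2, 24.0 and 18.0 FPKM in Thy1-SSEA1+ cells with Dppa2/4 on days 8, 11 and 14, and 84.8, 66.1 and 48.5 FPKM in controls. Prdm14 measured 1.12, 1.85 and 3.94 FPKM with Dppa2/4 and 12.9, 11.7 and 14.5 FPKM in controls. For both genes each Dppa2/4 library lay below all 3 control libraries. In GFP+ cells Sall4 was at 106, 128 and 89.0 FPKM with Dppa2/4 and 153 and 119 FPKM in controls, and Prdm14 at 22.5, 22.5 and 24.9 FPKM with Dppa2/4 and 34.7 and 40.8 FPKM in controls. The Prdm14 arms stayed apart in GFP+ cells, while those of Sall4 overlapped. Below SSEA1 both were low: Prdm14 did not exceed 0.854 FPKM in any SSEA1- library, and Sall4 did not exceed 13.2 FPKM.

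Esrrb and Nr5a2 are orphan nuclear receptors that bind the same half-site, Esrrb a target of Nanog and of Wnt signalling (chr12:86361117-86521628) and Nr5a2 a factor able to stand in for Oct4 in reprogramming (chr1:136842571-136960448). Esrrb measured 12.1, 22.9 and 21.4 FPKM in Thy1-SSEA1+ cells with Dppa2/4 on days 8, 11 and 14, and 62.6, 81.9 and 77.8 FPKM in controls. In GFP+ cells it was 132, 149 and 115 FPKM with Dppa2/4 and 198 and 199 FPKM in controls. Neither gate had an overlap between arms. Nr5a2 measured 0.378, 1.27 and 1.72 FPKM in Thy1-SSEA1+ cells with Dppa2/4, and 23.9, 16.1 and 5.10 FPKM in controls. Its GFP+ levels were 9.33, 12.5 and 10.5 FPKM with Dppa2/4 and 14.3 and 12.2 FPKM in controls, so the control Thy1-SSEA1+ cells of days 8 and 11 were above every GFP+ library. In all SSEA1- libraries Nr5a2 was at 1.35 FPKM or lower.

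Tfcp2l1, a Stat3 target that carries much of the Lif effect in embryonic stem cells (chr1:118627945-118685168), had lower values with Dppa2/4 in SSEA1-negative cells as well. In Thy1-SSEA1- cells it measured 0.126, 0.731, 1.75 and 5.30 FPKM with Dppa2/4 on days 2, 4, 8 and 11, and 1.43, 3.70, 7.53 and 14.2 FPKM in controls. The Dppa2/4 value was the lower on each day. Its day 14 value with Dppa2/4 was 3.88 FPKM. In Thy1-SSEA1+ cells it was 4.40, 19.0 and 27.5 FPKM with Dppa2/4 on days 8, 11 and 14, and 44.5, 50.4 and 31.1 FPKM in controls. In that gate the distance between arms was thus widest on day 8 and small on day 14. GFP+ cells had 78.8, 124 and 118 FPKM with Dppa2/4 on days 8, 11 and 14, and 119 and 80.4 FPKM in controls on days 11 and 14.

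Zfp42, also called Rex1, a zinc finger protein and classic marker of the naive state (chr8:43295063-43306980), did not exceed 4.95 FPKM in any library outside Thy1-SSEA1+ and GFP+ cells. It measured 1.17, 9.80 and 17.7 FPKM in Thy1-SSEA1+ cells with Dppa2/4 on days 8, 11 and 14, and 14.9, 15.3 and 31.0 FPKM in controls. GFP+ cells had 78.8, 146 and 103 FPKM with Dppa2/4 and 126 and 127 FPKM in controls. Klf2, a Krüppel-like factor tied to the block of Erk signalling (chr8:72319033-72321656), was at 1.83, 5.46 and 7.34 FPKM in Thy1-SSEA1+ cells with Dppa2/4 and 7.54, 7.18 and 18.0 FPKM in controls. In GFP+ cells it was at 17.8, 31.8 and 32.4 FPKM with Dppa2/4 and 28.1 and 58.4 FPKM in controls. For both genes the arms overlapped in both gates.

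Klf5, a Krüppel-like factor (chr14:99298691-99315036), and Tbx3, a T-box factor (chr5:119670669-119684724), were already present in fibroblast-like cells, at 2.93 to 5.76 and 2.37 to 4.96 FPKM in Thy1+SSEA1- cells. Klf5 measured 3.95, 9.39 and 12.4 FPKM in Thy1-SSEA1+ cells with Dppa2/4 on days 8, 11 and 14, and 7.66, 7.47 and 11.1 FPKM in controls. Tbx3 measured 1.76, 7.13 and 9.72 FPKM with Dppa2/4 and 11.4, 9.69 and 19.6 FPKM in controls. The arms overlapped for both. The day 2 Thy1-SSEA1- cells had Tbx3 at 15.2 FPKM with Dppa2/4 and 10.4 FPKM in controls, above the later days of that gate. In GFP+ cells Klf5 was at 23.5, 32.7 and 24.6 FPKM with Dppa2/4 and 31.1 and 26.2 FPKM in controls, and Tbx3 at 30.5, 75.5 and 61.5 FPKM with Dppa2/4 and 69.4 and 81.1 FPKM in controls.

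In GFP+ cells, by the median of the Dppa2/4 libraries, the members ranked from Nanog at 323 FPKM through Esrrb at 132, Tfcp2l1 at 118, Sall4 at 106, Zfp42 at 103, Tbx3 at 61.5, Klf2 at 31.8, Klf5 at 24.6 and Prdm14 at 22.5 to Nr5a2 at 10.5 FPKM. Over the 5 GFP+ libraries Nanog lay above all the others and Nr5a2 below all the others. The ranges of Esrrb, Tfcp2l1, Sall4 and Zfp42 overlapped, as did those of Klf2, Klf5 and Prdm14. Within each GFP+ library Esrrb was nevertheless above Sall4 and Zfp42, while the order of Esrrb and Tfcp2l1 varied between libraries. Differences between members within libraries were not tested. In Thy1+SSEA1- cells with Dppa2/4 the order was led by Klf5 at a median of 4.77, Nanog at 4.05 and Tbx3 at 3.84 FPKM, with Prdm14 at 0.124 and Nr5a2 at 0.112 FPKM at the end. That order changed without the doubtful day 4 library, with Nanog first at a median of 4.58, then Tbx3 at 4.15 and Klf5 at 4.04 FPKM. Nr5a2 at 0.108 and Prdm14 at 0.0785 FPKM were then at the end.

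The gates were compared next, to ask at which step of the sort the factors came on. Nanog passed at the first step: it was 1.25 ± 0.33 higher on the log2 scale (difference ± SE) in Thy1-SSEA1- than in Thy1+SSEA1- cells (limma on log2(FPKM + 1), 30 libraries with arm and day as a block, adjusted p = 0.048), and it was the 1 member of 10 that rose, where 1.54% of all genes tested were higher and 0.930% lower. The call is weak: it was lost without the doubtful day 4 library (1.12, adjusted p = 0.12) and in 24 of 30 fits that left out 1 library. Sall4 (1.08 ± 0.32) and Tbx3 (0.82 ± 0.24) had the next largest values and did not pass (adjusted p = 0.089 and 0.076).

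From Thy1-SSEA1- to Thy1-SSEA1+ cells 9 of 10 members rose, where 18.2% of all genes were higher and 19.5% lower. The median member difference was 2.00 on the log2 scale, and that of all genes 0.013. Nanog rose by 3.13 ± 0.37, Esrrb by 2.93 ± 0.36, Sall4 by 2.40 ± 0.37, Tfcp2l1 by 2.30 ± 0.37 and Prdm14 by 2.15 ± 0.29 (limma adjusted p of 0.00023 or lower). Zfp42 rose by 1.86 ± 0.38, Nr5a2 by 1.83 ± 0.38, Klf2 by 1.32 ± 0.21 and Klf5 by 0.54 ± 0.18. Tbx3 differed by 0.30 ± 0.27 (adjusted p = 0.41). On this scale the added 1 FPKM understates the change of genes at low levels, such as Prdm14 and Nr5a2. The 12 fibroblast markers fell together in this step, and on day 11 their summed level was 511 FPKM in Thy1-SSEA1+ against 1521 FPKM in Thy1-SSEA1- cells with Dppa2/4, and 204 against 1383 FPKM in controls. Their part in the result was not tested.

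From Thy1-SSEA1+ to GFP+ cells 10 of 10 members rose, where 14.1% of all genes were higher and 18.4% lower, with a median of 2.05 against -0.07 over all genes. Quantile normalization raised the median of all genes by 0.11 in this step, with 2980 genes higher and 2514 lower, against 2420 and 3154 as deposited. Zfp42 rose the most, by 3.17 ± 0.41, followed by Tbx3 at 2.72 ± 0.29, Prdm14 at 2.22 ± 0.31, Tfcp2l1 at 2.18 ± 0.40, Klf2 at 2.06 ± 0.22 and Esrrb at 2.04 ± 0.39 (limma adjusted p of 0.00056 or lower). Sall4 rose by 1.70 ± 0.40, Klf5 by 1.60 ± 0.19, Nr5a2 by 1.42 ± 0.41 and Nanog by 1.22 ± 0.40 (adjusted p = 0.0031, 6.8e-06, 0.012 and 0.025). Nanog's call was lost without any 1 of the Dppa2/4 Thy1-SSEA1+ or GFP+ libraries or the control day 14 GFP+ library (1.10 to 1.19, adjusted p up to 0.071), and that of Nr5a2 without the Dppa2/4 day 11 Thy1-SSEA1+ library (1.16, adjusted p = 0.053). Klf5's call in the step before was lost without the Dppa2/4 day 14 Thy1-SSEA1+ library (0.43), the control Thy1-SSEA1+ library of day 8 (0.53) or of day 14 (0.46), or the control day 8 Thy1-SSEA1- library (0.50), with adjusted p of 0.051 to 0.075.

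**Figure D2:**
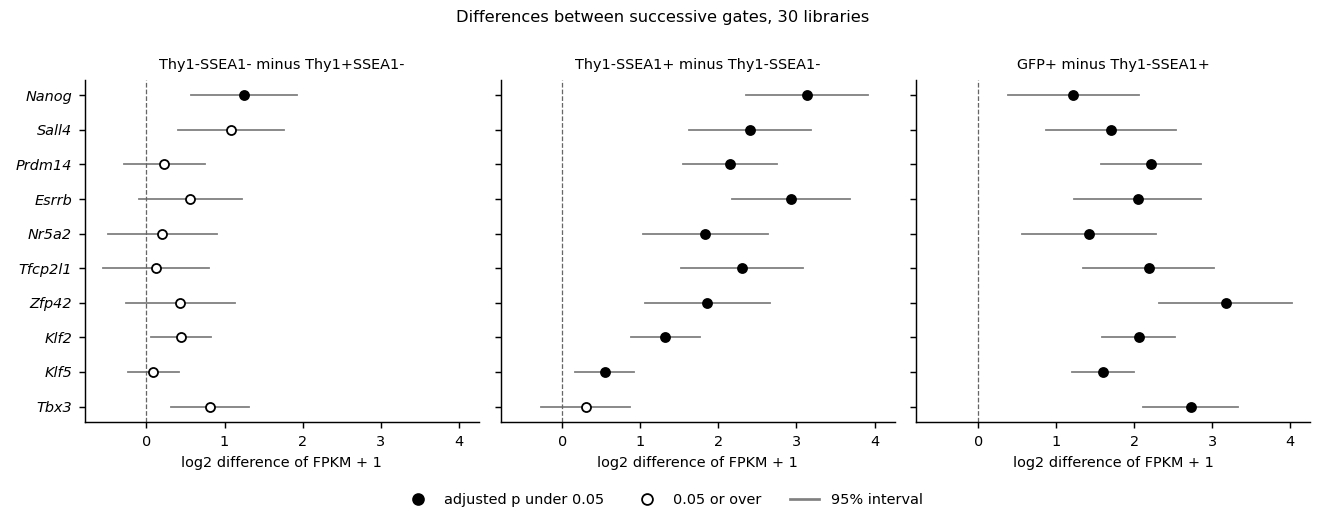
Difference between successive gates for each factor on the log2 scale of FPKM + 1, with 95% intervals, from a fit to 30 libraries. Nanog leads the first and second steps, at 1.25 and 3.13, while Zfp42 and Tbx3 lead the third at 3.17 and 2.72.

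The steps had different sizes when each arm was fitted alone. In the step to Thy1-SSEA1+ cells 4 of 10 members passed in the Dppa2/4 arm (Nanog, Esrrb, Prdm14 and Sall4), where 0.772% of all genes were higher, and 10 of 10 in the control arm, where 16.3% were higher. In the step to GFP+ cells 10 of 10 passed in the Dppa2/4 arm, where 8.42% of all genes were higher, and 5 of 10 in the control arm (Zfp42, Klf2, Klf5, Tbx3 and Prdm14), where 3.98% were higher. The number of genes called thus differed between the arms over all genes as well. Nr5a2 gives the extreme: it differed by 0.70 ± 0.17 in the Dppa2/4 arm and 3.07 ± 0.42 in the control arm at the step to SSEA1, and by 2.52 ± 0.18 and 0.19 ± 0.46 at the step to GFP. Tbx3 differed by -0.40 ± 0.33 in the Dppa2/4 arm and 1.12 ± 0.22 in the control arm at the step to SSEA1. Whether arms differ is tested below as the difference between arms in each gate.

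The gates were also set side by side through the level of Thy1-SSEA1+ cells as a percentage of GFP+ cells of the same arm and day. On day 11 Nanog stood at 32.2% with Dppa2/4 and 64.7% in controls, Esrrb at 15.3% and 41.4%, Sall4 at 18.7% and 43.1%, Tfcp2l1 at 15.3% and 42.4%, Prdm14 at 8.2% and 33.8%, and Nr5a2 at 10.2% and 112.8%. Zfp42 stood at 6.7% and 12.1%, Tbx3 at 9.5% and 14.0%, Klf2 at 17.2% and 25.5%, and Klf5 at 28.7% and 24.0%. By day 14 Klf5 reached 50.6% with Dppa2/4 and 42.4% in controls. Pou5f1 and Sox2 followed the same order, at 28.9% and 12.1% on day 11 with Dppa2/4 and 62.5% and 31.6% in controls, although their signal can include reads of the induced cassette.

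**Figure D3:**
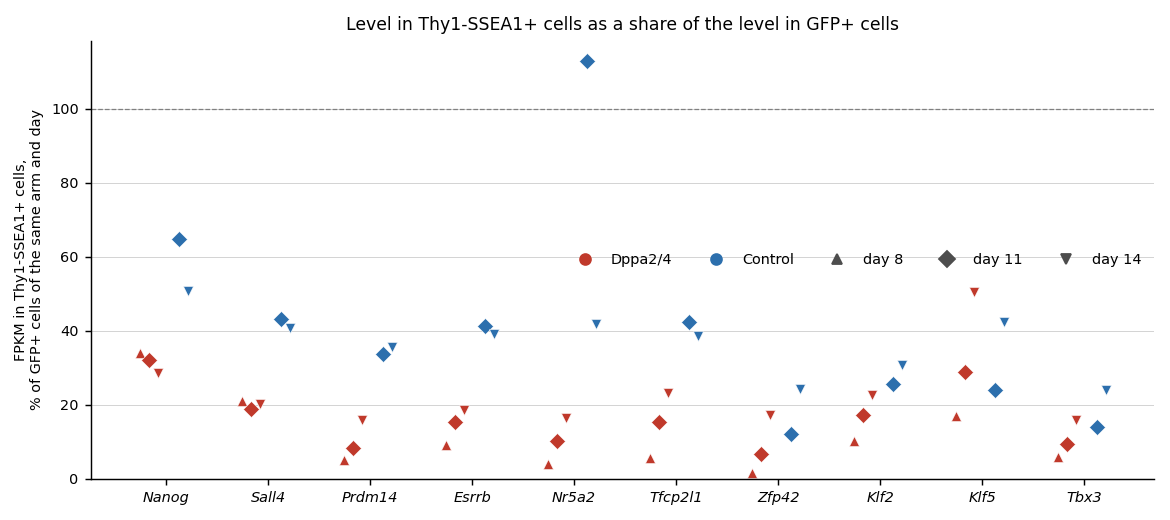
FPKM in Thy1-SSEA1+ cells as a percentage of FPKM in GFP+ cells of the same arm and day (vertical axis), for days 8, 11 and 14 with Dppa2/4 (red, left) and days 11 and 14 in controls (blue, right). The red points lie below the blue ones for Nanog, Sall4, Prdm14, Esrrb, Nr5a2, Tfcp2l1 and Klf2, from 28.5% to 34.1% against 50.8% to 64.7% for Nanog.

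The main comparison asks whether Dppa2/4 changed the factors. Over all 13 pairs Tfcp2l1 fell with Dppa2/4, by 0.91 ± 0.27 on the log2 scale (limma with day and gate as a block, adjusted p = 0.026). It was lower in 10 of 13 pairs and higher in both GFP+ pairs and in the pair with the doubtful day 4 library, without which the difference was -1.05 (adjusted p = 0.011). It was the 1 member of 10 that passed, where 7.64% of all genes were lower and 15.8% higher. After quantile normalization 2142 genes were lower and 2007 higher, against 1306 and 2705 as deposited, and 1 member again passed. Prdm14 (-0.65 ± 0.24), Nr5a2 (-0.77 ± 0.34) and Esrrb (-0.52 ± 0.26) had the next largest values and did not pass (adjusted p = 0.067, 0.11 and 0.17). The Tfcp2l1 call was lost without any 1 of 4 pairs (day 8 Thy1+SSEA1-, day 8 or 11 Thy1-SSEA1-, day 11 Thy1-SSEA1+; -0.85 to -0.88, adjusted p = 0.0504 to 0.0539) and without day 2 (-0.85), day 8 (-0.55) or day 11 (-0.92), with adjusted p = 0.071, 0.14 and 0.097.

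**Figure D4:**
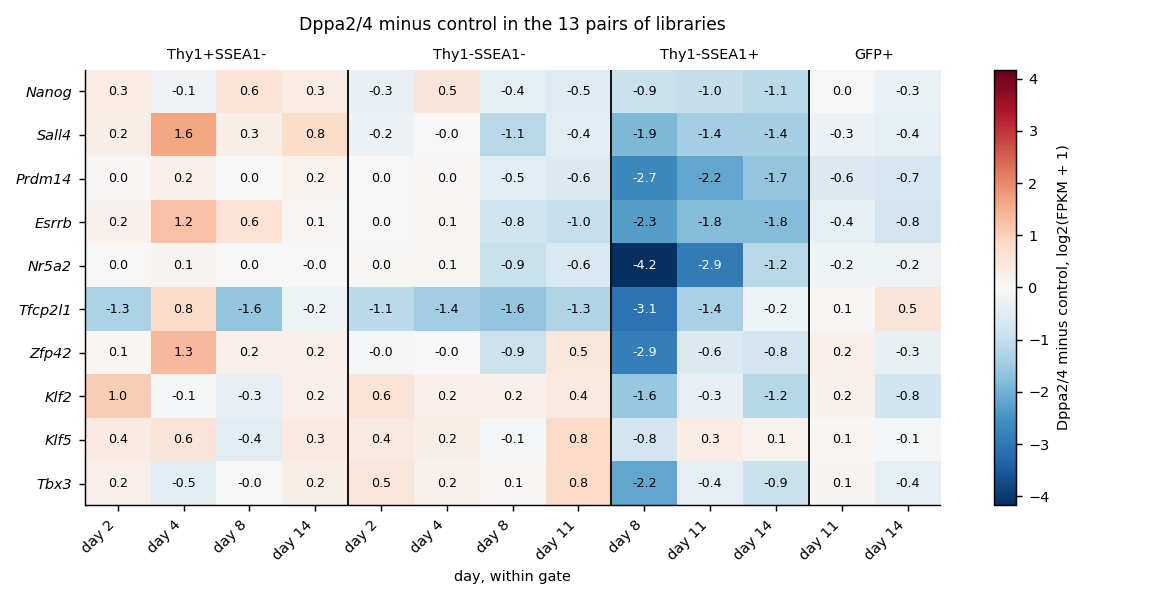
Dppa2/4 minus control for each factor (rows) in each of the 13 pairs of libraries (columns, by gate and day), on the log2 scale of FPKM + 1, blue where Dppa2/4 is lower. The 3 Thy1-SSEA1+ columns have the lowest medians over the 10 factors, at -2.23, -1.18 and -1.14.

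The pairs show where the differences lay. In Thy1-SSEA1+ cells 10 of 10 members were lower with Dppa2/4 on day 8, with a median of -2.23, and 9 of 10 on days 11 and 14, with medians of -1.18 and -1.14. In Thy1-SSEA1- cells 8 of 10 were lower on day 8 (median -0.66) and 6 of 10 on day 11 (median -0.49), while on days 2 and 4 the medians were 0.02 and 0.07. In Thy1+SSEA1- cells the medians were 0.03 to 0.38, with the highest in the pair of the doubtful library. In GFP+ cells 4 of 10 were lower on day 11 and 9 of 10 on day 14, with medians of 0.03 and -0.35. The share of all genes lower in each single pair was not counted, so the member counts only describe the pairs. Fitted by gate, the median difference over all genes was 0.06 in Thy1-SSEA1+, 0.03 in Thy1-SSEA1-, 0.007 in Thy1+SSEA1- and 0.03 in GFP+ cells.

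Fitted by gate, 8 of 10 members fell with Dppa2/4 in Thy1-SSEA1+ cells, where 5.42% of all genes were lower and 9.13% higher, and the median member difference was -1.47 against 0.06 over all genes. After quantile normalization 1211 genes were lower and 1092 higher, against 927 and 1561 as deposited. Nr5a2 fell by 2.75 ± 0.41, Prdm14 by 2.17 ± 0.20, Esrrb by 1.96 ± 0.26, Sall4 by 1.56 ± 0.27 and Nanog by 1.01 ± 0.20 on the log2 scale (limma, 26 libraries, adjusted p = 0.0029, 0.00055, 0.0019, 0.0054 and 0.0088). Tbx3 fell by 1.17 ± 0.29, Klf2 by 1.04 ± 0.29 and Zfp42 by 1.41 ± 0.41 (adjusted p = 0.021, 0.036 and 0.041). All 8 were lower on each of the 3 days. Tfcp2l1 (-1.54 ± 0.50) did not pass, with an adjusted p of 0.059 and 0.037 without the doubtful day 4 pair. Over the fits that left out 1 pair it was -2.22 to -0.77, with an adjusted p of up to 0.30. Klf5 (-0.12 ± 0.24) had an interval of -0.65 to 0.41.

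How firmly these calls stand differed by gene. Esrrb, Nr5a2, Prdm14 and Sall4 passed in all 13 fits that left out 1 pair. Nanog was lost without the day 11 Thy1-SSEA1+ pair (-1.01, adjusted p = 0.066) and Tbx3 without the day 8 one (-0.67, adjusted p = 0.095). Klf2 passed in 9 of 13 such fits and was lost without any 1 of the 3 Thy1-SSEA1+ pairs (-0.76, -1.39 and -0.97 without day 8, 11 and 14, adjusted p = 0.16, 0.053 and 0.12) or the day 8 Thy1-SSEA1- pair (-1.04, adjusted p = 0.0502). Zfp42 passed in 4 of 13, those without the day 2 or 4 Thy1+SSEA1- or the day 8 or 11 Thy1-SSEA1- pair, and was -0.68 (adjusted p = 0.21) without day 8 of its own gate. With a fit of this gate alone, which has 3 pairs, 0 of 10 members passed. In the fit of all gates 5249 of the 17104 genes tested were at an unadjusted p under 0.05 in Thy1-SSEA1+ cells. Of the 12 fibroblast markers 2 were, and 0 passed in limma. Their summed level was 511 and 251 FPKM with Dppa2/4 on days 11 and 14 and 204 and 579 FPKM in controls, and on day 8 it was again the higher with Dppa2/4, against 98.8 FPKM in controls. Of 3 tested primitive endoderm markers 2 were higher with Dppa2/4, Dab2 (1.67 ± 0.41) and Col4a1 (1.10 ± 0.32), with adjusted p = 0.022 and 0.041. The third, the defining gene Gata4, had 0.98 ± 0.32 (adjusted p = 0.066), and all 3 were at an unadjusted p under 0.05. The summed level of that list was 67.8 to 104 FPKM with Dppa2/4 and 20.4 to 67.6 FPKM in controls, while its other defining genes Gata6, Sox17, Sox7 and Foxa2 did not pass the filter on low values. In Thy1+SSEA1- cells the same list summed to 61.7 to 214 FPKM with Dppa2/4 and 137 to 234 FPKM in controls. Dab2 and Col4a1 fell at the step to Thy1-SSEA1+ cells (-1.62 ± 0.37 and -1.29 ± 0.28), beside 19.5% of all genes. They also fell at the step to GFP+ cells (-2.03 ± 0.40 and -2.31 ± 0.30), beside 18.4% of all genes. The part of either cell type in the result was not tested.

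**Figure D5:**
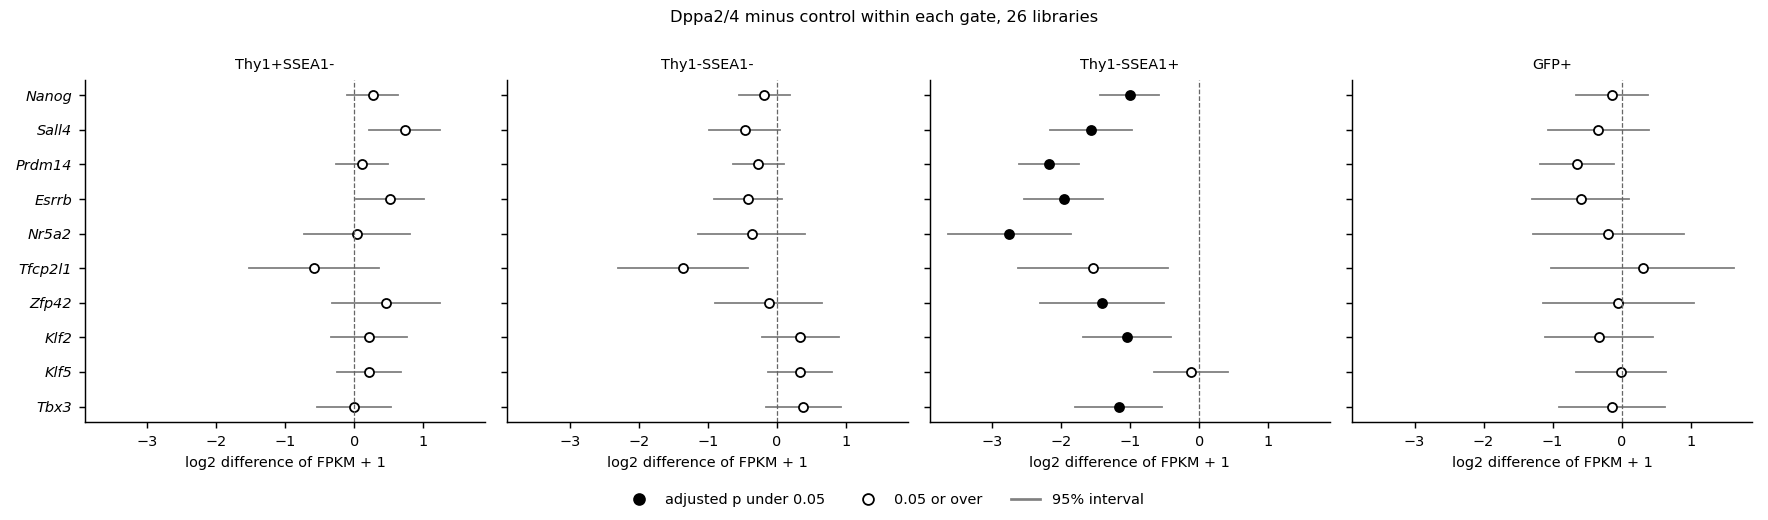
Dppa2/4 minus control for each factor within each of 4 gates, on the log2 scale of FPKM + 1, with 95% intervals, from a fit to 26 libraries. Filled points, with an adjusted p under 0.05, occur in the Thy1-SSEA1+ panel alone, for 8 of 10 factors.

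In the other gates 0 of 10 members passed in limma, with 2 members at an unadjusted p under 0.05 in Thy1+SSEA1- cells (Sall4 0.73 ± 0.23 and Esrrb 0.51 ± 0.23), 1 in Thy1-SSEA1- cells (Tfcp2l1 -1.36 ± 0.43) and 1 in GFP+ cells (Prdm14 -0.65 ± 0.24). Of the 17104 genes tested 3187, 3106 and 1270 were at an unadjusted p under 0.05 in those gates, in the same order. Without the doubtful day 4 pair Sall4 was 0.43 ± 0.21 and Esrrb 0.28 ± 0.23 in Thy1+SSEA1- cells (adjusted p = 0.25 and 0.53). The share of all genes called in either direction was 3.72% in Thy1+SSEA1- cells, 1.15% in Thy1-SSEA1- cells and 0.0175% in GFP+ cells, which had 2 pairs. In Thy1+SSEA1- cells 491 genes were higher and 145 lower as deposited and 203 and 137 after quantile normalization, and in Thy1-SSEA1- cells 155 and 42 as deposited and 86 and 60 after it. The intervals in GFP+ cells were wide, from -1.18 to -0.12 for Prdm14, -0.67 to 0.38 for Nanog, -1.29 to 0.11 for Esrrb and -1.02 to 1.63 for Tfcp2l1. They do not show that the arms had equal levels.

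A difference between gates was tested as an interaction. The Dppa2/4 effect was lower in Thy1-SSEA1+ than in Thy1-SSEA1- cells for Prdm14, by 1.91 ± 0.26 (limma adjusted p = 0.017), the 1 member of 10 that passed where 0.234% of all genes were lower and 0.140% higher. That call was lost without the day 2 or day 4 Thy1-SSEA1- pair or the day 11 Thy1-SSEA1+ pair (adjusted p = 0.072, 0.071 and 0.067). Prdm14 was at 0.854 FPKM or lower in every Thy1-SSEA1- library, where log2(FPKM + 1) leaves little room for a difference between arms. On days 8 and 11 it was there at 0.217 and 0.209 FPKM with Dppa2/4, below 0.702 and 0.854 FPKM in controls, and on days 2 and 4 it was at 0.0273 FPKM or lower in both arms. Nr5a2 (-2.39 ± 0.54), Tbx3 (-1.55 ± 0.38) and Esrrb (-1.54 ± 0.35) did not pass (adjusted p = 0.10, 0.12 and 0.097). At an unadjusted p under 0.05 there were 8 of 10 members and 2152 of the 17104 genes. Between GFP+ and Thy1-SSEA1+ cells 0 of 10 passed, with 7 at an unadjusted p under 0.05, all with a less negative effect in GFP+ cells, against 1284 of all genes, and 0.0117% of all genes were called. Between Thy1-SSEA1- and Thy1+SSEA1- cells 0 of 10 passed, with 2 at an unadjusted p under 0.05 against 425 of all genes, and 0% of all genes were called. For 7 of the 8 members that fell in Thy1-SSEA1+ cells, then, a difference between that effect and the one in Thy1-SSEA1- cells was not shown.

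Change per day within a gate was fitted over both arms. In Thy1-SSEA1- cells 6 of 10 members rose with time, where 4.20% of all genes rose: Sall4 by 0.32 ± 0.04, Esrrb by 0.28 ± 0.04, Nanog by 0.25 ± 0.06, Zfp42 by 0.23 ± 0.04, Tfcp2l1 by 0.22 ± 0.05 and Prdm14 by 0.07 ± 0.02 per day on the log2 scale (limma adjusted p of 0.020 or lower). Tbx3 changed by -0.08 ± 0.03 per day (adjusted p = 0.15). Without the Dppa2/4 day 2 library of that gate 3 of the 6 remained past the threshold, and Nanog dropped to 0.16. In Thy1-SSEA1+ cells 3 of 10 rose, where 5.85% of all genes rose: Zfp42 by 0.34 ± 0.08, Klf2 by 0.23 ± 0.06 and Tbx3 by 0.22 ± 0.07 per day (adjusted p = 0.019, 0.026 and 0.049). After quantile normalization 514 genes rose and 476 fell in this gate, against 1000 and 254 as deposited, and Tbx3 no longer passed (0.19, adjusted p = 0.098).

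All 3 calls in Thy1-SSEA1+ cells were lost without the Dppa2/4 day 8, the Dppa2/4 day 14 or the control day 14 library of the gate, where without Dppa2/4 day 8 Zfp42 was at 0.19, Klf2 at 0.18 and Tbx3 at 0.12. Of 28 fits that left out 1 library Zfp42 and Klf2 passed in 25 each and Tbx3 in 11. Nanog, Sall4 and Nr5a2, by contrast, had values of -0.10 ± 0.13, -0.09 ± 0.08 and -0.09 ± 0.07 per day in this gate, which did not pass. In Thy1+SSEA1- cells Esrrb alone passed, at 0.12 ± 0.03 per day (adjusted p = 0.024), where 7.24% of all genes rose (1238 higher and 945 lower as deposited, 948 and 1194 after quantile normalization), and it was lost without the day 2 or day 14 library of either arm (0.09 to 0.13, adjusted p = 0.068 to 0.25). In GFP+ cells 0 of 10 passed in limma, with 1 at an unadjusted p under 0.05, where 1.25% of all genes rose.

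The number of members on in a library summarises this course. At 5 FPKM or more there were 0 to 2 members in Thy1+SSEA1- cells, 1 to 5 in Thy1-SSEA1- cells, 3, 8 and 8 in Thy1-SSEA1+ cells with Dppa2/4 on days 8, 11 and 14 against 10, 10 and 10 in controls, and 10 in every GFP+ library. The summed level of the 10 was 172, 205 and 194 FPKM in Thy1-SSEA1+ cells with Dppa2/4 and 503, 475 and 418 FPKM in controls, and 839 to 1046 FPKM in GFP+ cells with Dppa2/4 and 1061 to 1097 FPKM in controls.

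Across the 30 libraries the members were correlated in pairs, from r = 0.647 for Nanog and Tbx3 to 0.978 for Esrrb and Sall4 (Pearson, log2(FPKM + 1)). These libraries share gates, days and cultures, so the values describe the course of the sort. The genes most like each member over the same libraries were Sall4 (0.967) and Eras (0.963) for Nanog, Tdgf1 (0.98) and Esrrb (0.978) for Sall4, and Zfp473 (0.992) and Olig2 (0.991) for Prdm14. Esrrb was nearest to Dppa3 (0.984) and Mycn (0.981), and Nr5a2 to Gng3 (0.975) and Mycn (0.968). Tfcp2l1 was nearest to Ccdc14 (0.975) and Zfp57 (0.961), Zfp42 to Trap1a (0.985) and Mreg (0.984), and Klf2 to RP23-90I17.3.1 (0.983) and Ooep (0.98). Klf5 was nearest to Arih2 (0.97) and 2610305D13Rik (0.962), and Tbx3 to Ephx2 (0.947) and Accsl (0.938), the lowest values among the 10.

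Other genes of the same circuit were read from lists. Of 15 tested pluripotency transcription factors outside the 10, 12 fell with Dppa2/4 in Thy1-SSEA1+ cells, led by Utf1 (-2.21 ± 0.41), a chromatin-bound factor of embryonic stem cells, and Mycn (-1.98 ± 0.32), a Myc family member, in the same limma fit (adjusted p = 0.0077 and 0.0039). Pou5f1 (-1.24 ± 0.34), Sox2 (-1.61 ± 0.41) and Klf4 (-1.24 ± 0.31) also fell (adjusted p = 0.035, 0.026 and 0.023), in values that can include the induced cassette. Of these 15, 13 rose at the step to Thy1-SSEA1+ cells, led by Mybl2 (2.74 ± 0.35) and Zscan10 (2.73 ± 0.33), and 13 at the step to GFP+ cells, led by Sox2 (2.49 ± 0.37) and Nr0b1 (2.05 ± 0.31). Over all genes 18.2% rose at the first of these steps and 14.1% at the second. Over all 13 pairs 3 of 15 fell, Pou5f1 (-0.72 ± 0.17, adjusted p = 0.0081), Mybl2 (-0.56 ± 0.19, adjusted p = 0.049) and Klf4 (-0.50 ± 0.17, adjusted p = 0.048), while Sox2 had -0.61 ± 0.23 (adjusted p = 0.066). That count stands beside 7.64% of all genes lower.

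Genes of the Lif and Stat3 pathway, which feeds the network, were read in the same way. Of 9 tested, 2 passed in Thy1-SSEA1+ cells, both higher with Dppa2/4, the kinase genes Jak2 (1.51 ± 0.22) and Jak1 (0.84 ± 0.19), with limma adjusted p = 0.0029 and 0.017, where 9.13% of all genes were higher and 5.42% lower. Over all 13 pairs Jak2 (0.56 ± 0.18) and Lif (0.52 ± 0.17) were higher (adjusted p = 0.036 and 0.039), beside 15.8% of all genes. At the step to Thy1-SSEA1+ cells, where 18.2% of all genes rose and 19.5% fell, 1 of the 9 rose and 4 fell, among them the receptor gene Il6st (-1.32 ± 0.41) and Jak1 (-1.15 ± 0.26). At the step to GFP+ cells, where 14.1% of all genes rose and 18.4% fell, 3 rose and 2 fell, with the kinase gene Pim1, a Stat3 target, at 1.15 ± 0.16 and Jak2 at -1.12 ± 0.28. At the first step Pim3 fell (-0.62 ± 0.15, adjusted p = 0.034), the 1 of the 9 that passed, beside 0.930% of all genes.

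Genes of formative and primed pluripotency, the states that follow the naive one in the embryo, were also read. Of 12 tested, 5 fell and 1 rose with Dppa2/4 in Thy1-SSEA1+ cells, with Dnmt3b, a de novo DNA methyltransferase gene, at -2.03 ± 0.25 and Otx2, a homeobox gene of the epiblast, at -1.99 ± 0.49 (limma adjusted p = 0.0016 and 0.021). At the step to Thy1-SSEA1+ cells 6 rose and 1 fell, led by Dnmt3b (1.79 ± 0.39) and Zic2 (1.75 ± 0.22), beside 18.2% and 19.5% of all genes. At the step to GFP+ cells 5 rose and 1 fell, with Otx2 at 2.19 ± 0.47 and Sall2 at -1.79 ± 0.17, beside 14.1% and 18.4% of all genes. Over all 13 pairs 2 rose and 1 fell, led by Zic5 (0.67 ± 0.13) and Lef1 (-0.62 ± 0.17). Over all genes 15.8% were higher and 7.64% lower there, so these 2 counts are near the shares of all genes. These lists were chosen with earlier results of these data known, and their counts stand beside 5.42% of all genes lower and 9.13% higher with Dppa2/4 in Thy1-SSEA1+ cells.

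Markers of other cell types were counted in the same way. Over all genes 18.2% rose and 19.5% fell at the step to Thy1-SSEA1+ cells, and 14.1% rose and 18.4% fell at the step to GFP+ cells. With Dppa2/4, 15.8% of all genes were higher and 7.64% lower over all 13 pairs. In Thy1-SSEA1+ cells 9.13% of all genes were higher with Dppa2/4 and 5.42% lower. Of 8 epithelial markers 6 rose at the step to Thy1-SSEA1+ cells, led by Esrp1 (2.73 ± 0.30) and Cldn6 (2.46 ± 0.52), and 3 fell at the step to GFP+ cells, led by the keratin genes Krt8 (-3.15 ± 0.55) and Krt18 (-2.09 ± 0.48). With Dppa2/4, 6 of the 8 were higher over all 13 pairs, led by Ocln (2.32 ± 0.27) and Krt18 (1.77 ± 0.30), while in Thy1-SSEA1+ cells 1 was higher, Ocln (1.81 ± 0.52), and 1 lower, Esrp1 (-0.76 ± 0.17). Their summed level in Thy1-SSEA1+ cells was 424 to 857 FPKM with Dppa2/4 and 403 to 1013 FPKM in controls. Of 6 tested trophoblast markers 2 were lower with Dppa2/4 in Thy1-SSEA1+ cells, Tfap2c (-1.36 ± 0.40) and Elf5 (-1.16 ± 0.16), and the defining gene Cdx2 did not pass the filter. Tfap2c and Elf5 were the 2 that rose at the step to Thy1-SSEA1+ cells (2.37 ± 0.38 and 1.87 ± 0.25). Krt7 (-1.91 ± 0.60) and Elf5 (-1.50 ± 0.27) fell at the step to GFP+ cells. Krt7 (1.99 ± 0.36) and Hand1 (1.81 ± 0.31) were higher with Dppa2/4 over all 13 pairs, and 1 trophoblast marker was lower. Of 4 endothelial markers 1 was higher with Dppa2/4 in Thy1-SSEA1+ cells, Cldn5 (2.55 ± 0.65), and 1 lower, Pecam1 (-0.65 ± 0.16). Of 3 immune markers 0 passed in limma in that gate, with 2 at an unadjusted p under 0.05, beside 5249 of the 17104 genes tested. Ptprc and Cdh5, which define those cell types, did not pass the filter. Over all 13 pairs 3 fibroblast markers of 12 were lower, led by Lum (-1.15 ± 0.30), and 1 was higher. Of the 3 immune markers 2 were higher over these pairs, Cd68 (0.54 ± 0.18) and Cd14 (0.50 ± 0.11). Of the 4 endothelial markers Cldn5 (1.85 ± 0.34) was higher and Tek (-0.74 ± 0.17) lower over the same pairs. The part of these cell types in the members' values was not tested.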

How the data were processed

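RNA-seq gave 1 deposited table of gene-level FPKM values. Per the submitters' processing notes the tools named are TopHat2 and Cuffdiff with the mm10 build, and their versions, the annotation and the use of strand are not given in the sources used here. The FPKM values were used as the authors deposited them, and 3 of the 33 value columns were not used, 1 that matched no sample and 2 that name no gate. Samples labelled rtTA-MEF, from day 2 of each arm, likewise name no gate and were not used. The unmatched column is named for Dppa2/4 day 11 Thy1+SSEA1- cells. The sample labels give that day and gate for the control arm alone, and that control sample had no column. Which arm the column holds is not settled here. Genes with at least 1 FPKM in at least 2 of 30 libraries were tested (17104 of 37973) with limma 3.58.1 in R 4.3.3 on log2(FPKM + 1), with an intensity trend, Benjamini-Hochberg adjustment over all genes tested and a threshold of 0.05. The scripts were tested on simulated data. Pairs of day and gate were a block for the arms (26 libraries), arm and day for the gate steps (30 libraries), and the mean of each arm and gate was fitted for the change per day (28 libraries). Errors after ± are standard errors. Each arm, day and gate has 1 library, so spread between cultures is unknown. Depth was implied from 2001 genes with 1 transcript of over 2000 bases, and no intervals were built from it.

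The members and the gene lists were chosen with earlier results of these data known. Named genes are all members, Pou5f1, Sox2 and Klf4 whatever their result, and the 2 genes most correlated with each member. Genes of the other lists were drawn from up to 2 per list that passed and changed most in a comparison. The comparisons were the arm effect over all pairs, the arm effect in Thy1-SSEA1+ cells and the gate steps. Not every gene picked by that rule is named, and some defining genes of cell types are named whatever their result. Alternatives were another pseudocount (0.1), no filter, a stricter filter, quantile normalization, no trend, no block, each gate or arm alone, complete pairs alone, and leaving out libraries, pairs or days. Promoter sequences are RefSeq's for GRCm38.p6, and gene positions are GENCODE vM21's.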

Additional observations from a re-analysis of the deposited data

Results flagged for a closer look

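The effect of Dppa2/4 on Prdm14 differed between gates by a test of the difference itself: it was -1.91 ± 0.26 on the log2 scale in Thy1-SSEA1+ relative to Thy1-SSEA1- cells (limma interaction, adjusted p = 0.017). Prdm14 was lower with Dppa2/4 in 3 of 3 pairs of Thy1-SSEA1+ cells and in 2 of 4 pairs of Thy1-SSEA1- cells, those of days 8 and 11, at 0.217 and 0.209 FPKM with Dppa2/4 and 0.702 and 0.854 FPKM in controls. No Thy1-SSEA1- library had Prdm14 above 0.854 FPKM, which on the scale of log2(FPKM + 1) leaves little room for a difference between arms there.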

How the results depend on the processing

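The libraries carry no replicate numbers, so the blocks are day and gate for the arms and arm and day for the gate steps. Of 150 member results 40 passed, and of 1400 alternative values of these 40, 1227 also passed and 1400 kept their direction. Counts of members passed changed as follows. Over all pairs (1) it was 0 with no block. In Thy1-SSEA1+ cells (8) it was 5 with pseudocount 0.1, 2 with no block and 0 with the gate alone, and in Thy1+SSEA1- cells (0) it was 1 with pseudocount 0.1. For the interaction of Thy1-SSEA1+ with Thy1-SSEA1- cells (1) it was 0 with pseudocount 0.1 or a mean FPKM of at least 5. For the step to Thy1-SSEA1- cells (1) it was 0 with pseudocount 0.1, the stricter or no filter, complete pairs or each arm alone, and without the doubtful day 4 or the day 11 GFP+ control library. It was 4 with Dppa2/4 alone at the step to SSEA1 (9) and 5 with controls alone at the step to GFP (10). For the change per day it was 2 with pseudocount 0.1 and 0 with each arm or the gate alone in Thy1+SSEA1- cells (1), 0 with each arm alone in Thy1-SSEA1- cells (6), and 1 with pseudocount 0.1 (Tbx3, higher) or controls alone (Nr5a2, lower, at -0.34 with adjusted p = 0.035) and 0 with Dppa2/4 or the gate alone in Thy1-SSEA1+ cells (3).

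Leaving out 1 library, pair or day gave 0 to 2 members over all pairs, 5 to 9 in Thy1-SSEA1+ cells, 0 to 2 and 0 to 1 for the interactions of Thy1-SSEA1+ and of GFP+ cells, 0 to 1 at the first step, and 0 to 1, 3 to 6 and 0 to 4 for the change per day in Thy1+SSEA1-, Thy1-SSEA1- and Thy1-SSEA1+ cells. Signs turned only where neither value passed. Such ranges were -0.39 to 0.059 for Zfp42 over all pairs, -0.071 to 0.39 for Klf2 in Thy1+SSEA1- cells, -0.33 to 0.22 for Klf5 in Thy1-SSEA1+ cells, -0.83 to 0.17 for Klf2 in GFP+ cells and -0.86 to 0.59 for Tfcp2l1 in the interaction of Thy1-SSEA1+ cells. Per day they were -0.033 to 0.33 for Tfcp2l1 and -0.25 to 0.095 for Nr5a2 in Thy1-SSEA1+ cells, and -0.10 to 0.096 for Tfcp2l1, -0.082 to 0.15 for Zfp42 and -0.012 to 0.25 for Tbx3 in GFP+ cells. With 1 arm alone Tbx3 was -0.40 at the step to SSEA1 (Dppa2/4), Nr5a2 0.16 per day in Thy1-SSEA1+ cells (Dppa2/4), and Tfcp2l1 -0.084 per day there and -0.19 per day in GFP+ cells (controls). The cause was not tested, although fits of 1 arm or gate hold fewer libraries. For members at low levels, such as Nr5a2 and Prdm14 in SSEA1- cells, the added 1 FPKM understates differences. The part of depth in these values was not tested.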
